A study of Mus musculus with 18 samples.

Results

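The comparison described here is that of terminal bronchiolar epithelial cells from lungs of Cebpa d/d mice at 3 hr against 0 hr of naphthalene injury. Its members were chosen by genotype and time in the labels and number 6 of the 18 arrays of the series, 3 at each time. All groups had the lung as source, a mixed FVB/N and C57BL/6 strain and naphthalene as the injury. The genotypes were called Cebpa d/d and control, and each was studied at 0, 3 and 72 hr, 3 arrays at a time. Age, dose, route and what the 0 hr mice received were not stated in the labels used here. Nor was the allele behind d/d, the promoter or cell type that drives the deletion, or whether animals were pooled. The replicates carry numbers but are not said to be separate animals, so a p-value refers only to the variation among these samples, part of which may be technical. Total RNA was labelled with biotin for Affymetrix Mouse Gene ST arrays, and the level of a gene is its deposited log2 value after RMA, which removes background, brings arrays to one distribution and combines probes into probe sets.

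Naphthalene harms club cells, the secretory cells of the small airways, because their cytochrome P450 enzyme Cyp2f2 turns it into a reactive epoxide that binds protein and uses up glutathione. Electrophiles of this kind modify KEAP1, which then releases the transcription factor NRF2, and NRF2 binds antioxidant response elements near genes of glutathione synthesis, quinone reduction and haem breakdown. C/EBP alpha, encoded by Cebpa, is a basic leucine zipper factor that sustains differentiation of the lung epithelium. Other members of its family, among them C/EBP beta, C/EBP delta and CHOP, pair with ATF4 or respond to stress.

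Cebpa itself lay at 8.27, 8.11 and 7.83 in the Cebpa d/d arrays of 0 hr and at 8.29, 8.07 and 8.37 in those of 3 hr. The difference between the times was 0.18 ± 0.42 (adjusted p = 0.894 in limma). A difference between means of 3 arrays a group is given ± its SE throughout. The SE is that of limma, whose variance for a gene is pooled over all groups of the series and moderated across genes. An SE can therefore be wider or narrower than the spread of the arrays listed beside it. In control Cebpa lay at 7.89, 10.07 and 10.17 at 0 hr and between 10.30 and 10.52 at 3 hr. The control 0 hr replicate 1 thus had a level in the Cebpa d/d range, against its label. The deleted stretch of the gene is not stated, so a probe set outside that part need not follow the deletion. Markers of airway epithelium were high in all 6 Cebpa d/d arrays: Scgb1a1, the secretoglobin that defines club cells, lay between 12.73 and 12.98 and Cyp2f2 between 13.04 and 13.22. Markers of other lung cells were present too, among them Sftpc of alveolar type 2 cells between 13.15 and 13.26, Ager of alveolar type 1 cells between 10.21 and 10.57 and Pecam1 of endothelium between 9.58 and 10.23. Fewer cells of a type and less RNA per cell cannot be told apart in such samples. Heart muscle genes stood apart: the mean of 49 of them was 9.01, 8.78 and 8.25 in the Cebpa d/d arrays of 0 hr and 7.11, 6.83 and 6.87 at 3 hr. In control these means were 7.29, 7.61 and 6.60 at 0 hr and 6.69, 6.66 and 7.06 at 3 hr. Heart muscle transcripts are treated here as carry-over of tissue at dissection and not as a response of the airway. X- and Y-linked transcripts placed replicate 1 of 0 hr and replicate 2 of 3 hr as female and the other 4 Cebpa d/d arrays as male.

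Within 3 hr the Cebpa d/d airway raised genes of glutathione supply, haem breakdown, amino acid stress, metal binding and growth factor response by up to 36.5-fold, while none of the secretory and P450 genes of club cells passed the test. The falls were smaller in number, and their largest members were muscle genes. Of 19938 genes, 531 rose and 343 fell at an adjusted p under 0.05 in limma, which is 2.66% and 1.72% of the genes tested and 4.38% in all. The median change was 0.656 among the rises and -0.635 among the falls, and 117 rises and 83 falls reached 2-fold. Arrays of the 2 times did not overlap for 2142 genes that were higher at 3 hr, 10.7% of those tested, and for 2376 that were lower, 11.9%. The median difference over all genes was -0.017. At an unadjusted p under 0.05 in limma there were 3435 genes, higher and lower together. Counts of list members at that threshold, given below, stand against this background. The count of 874 fell to 480 without 0 hr replicate 2, to 425 without 3 hr replicate 1 and to 402 without 3 hr replicate 3. With the heart muscle mean of each array as a covariate it was 6, all rises, as described below.

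The 25 largest rises were chosen among genes that passed and whose arrays did not overlap between the times, so their separation is given by the choice. Each also rose in control. Their sizes ran from 1.93 to 5.19 on the log2 scale, and 22 of them passed whichever array was left out. The other 3 were Akr1b8, Thbs1 and Gch1.

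**Figure D1:**
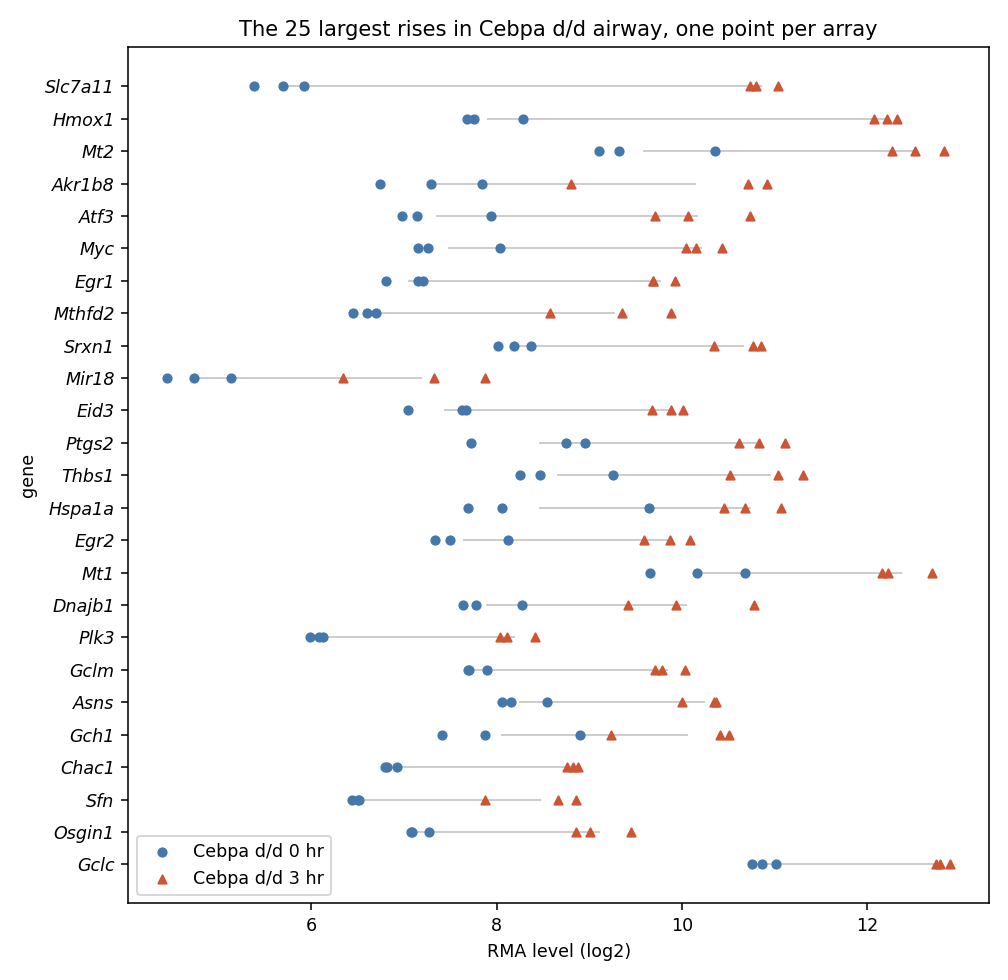
Level (log2, horizontal axis) of the 25 genes with the largest rise (vertical axis), circles for the 3 Cebpa d/d arrays of 0 hr and triangles for the 3 of 3 hr, joined by a line between the group means. Genes whose arrays overlap were not eligible, so the gap in each line is given by the choice; Slc7a11 at the top moves from 5.92, 5.38 and 5.70 to 10.73, 10.80 and 11.04.

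Genes of the NRF2 response rose in large part. Of 38 measured members of a list of oxidative stress and NRF2 target genes, 25 rose and 0 fell, 65.8% against 2.66% of all genes, and the median difference was 0.74. All 38 had a higher mean at 3 hr. The largest change was that of Slc7a11, the cystine carrier that feeds glutathione synthesis. It lay at 5.92, 5.38 and 5.70 at 0 hr and at 10.73, 10.80 and 11.04 at 3 hr, a rise of 5.19 ± 0.30 (adjusted p = 2.95e-08) or 36.5-fold. Hmox1, which opens the haem ring, went from 7.76, 8.28 and 7.68 to 12.07, 12.32 and 12.21, a rise of 4.29 ± 0.15 or 19.6-fold (adjusted p = 4.75e-11). In both genes the 3 hr arrays lay close together and far above those of 0 hr.

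Srxn1, which repairs over-oxidised peroxiredoxins, lay at 8.37, 8.19 and 8.02 and then at 10.77, 10.34 and 10.85, a rise of 2.46 ± 0.14 (adjusted p = 2.81e-08). Gclm and Gclc are the regulatory and catalytic subunits of the enzyme that sets the rate of glutathione synthesis. Gclm went from 7.90, 7.70 and 7.69 to 9.78, 9.71 and 10.03, and Gclc from 10.86, 10.75 and 11.01 to 12.78, 12.74 and 12.89. The subunits rose by 2.08 ± 0.14 and 1.93 ± 0.18. Osgin1, an oxidative stress growth inhibitor, rose by 1.96 ± 0.12 from 7.09, 7.27 and 7.08 to 9.01, 9.45 and 8.86. Txnrd1, the cytosolic thioredoxin reductase, rose by 1.80 ± 0.17. Sqstm1, an autophagy receptor that also binds KEAP1, rose by 1.48 ± 0.15, and Gpx2, an epithelial glutathione peroxidase, by 1.28 ± 0.15. None of these genes had overlapping arrays.

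Smaller rises on the same list included Cbr3, a carbonyl reductase (1.22 ± 0.20), Aox1, aldehyde oxidase (1.17 ± 0.20), and Nqo1, the quinone reductase often read as an NRF2 marker. Nqo1 lay at 6.90, 6.98 and 6.51 and then at 7.80, 7.6 and 8.18, a rise of 1.06 ± 0.21 (adjusted p = 0.00712), whose call was lost without 3 hr replicate 3 (adjusted p = 0.0501). The transcript of NRF2 itself, Nfe2l2, rose by 0.55, and those of its repressor Bach1 and partner Mafg by 0.77 and 0.40. Nfe2l2 was lost without 0 hr replicate 2 or 3 or any 1 of the 3 hr arrays, and Mafg without 0 hr replicate 2 or 3 hr replicate 3 (highest adjusted p = 0.157 and 0.0694). Akr1b8, an aldo-keto reductase, had the widest spread: 7.84, 7.29 and 6.74 at 0 hr against 10.71, 8.80 and 10.92 at 3 hr. Its rise of 2.86 ± 0.68 (adjusted p = 0.0237) passed in 14 of 18 fits that left out 1 array and was lost without 0 hr replicate 2 or 3 or without 3 hr replicate 1 or 3 (highest adjusted p = 0.124). The further members that rose were Gsr, Prdx1, Ftl1, Pgd, Abcc1, Ugdh, Slc6a9, Esd and Trib3, by 0.52 to 1.11. Of these Gsr, Pgd and Trib3 were lost without 3 hr replicate 1 or 3, and Ugdh (adjusted p = 0.0426) without any 1 of the 0 hr arrays, 3 hr replicate 1 or 3 or any 1 of 6 arrays of other groups.

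Promoter sequence was set beside these rises because NRF2 acts through a known element. The windows ran from 250 bases before to 50 bases after a start site in the RefSeq table of assembly GRCm38.p6, and held 19115 promoters of 15562 measured genes. The letters TGACNNNGC of the antioxidant response element were searched on both strands and stood in 13.2% of all promoters, in 20.8% of 529 promoters of genes that rose and in 11.8% of 363 promoters of genes that fell. Among 26 promoters of the NRF2 list members that rose, 10 held them (38.5%), and among 22 promoters of the immediate early genes that rose, 7 did (31.8%). The related AP-1 letters TGANTCA, which can overlap that element, stood in 6.88% of all promoters, in 7.56% of those that rose and in 15.4% of those on the list. A match is a description of these letters and does not show binding. The stretches around such matches are given for 4 genes with large rises, written 5′ to 3′ on the strand of the gene with the match in capitals. In Srxn1 and Osgin1 the capitals mark TGANTCA, and in Gclm and Txnrd1 they mark TGACNNNGC on the opposite strand. The search for TGACNNNGC did not allow G at base 4. With G there, the later Srxn1 match (TGAGTCAgc) would fit, as would the Osgin1 match (gcTGACTCA) on the opposite strand. The shares given for TGACNNNGC leave out such forms.
Srxn1, chr2:152105392-152105515, plus strand: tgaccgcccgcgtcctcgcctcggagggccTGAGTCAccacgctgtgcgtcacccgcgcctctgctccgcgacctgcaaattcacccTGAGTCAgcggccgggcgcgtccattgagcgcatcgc
Osgin1, chr8:119437020-119437086, plus strand: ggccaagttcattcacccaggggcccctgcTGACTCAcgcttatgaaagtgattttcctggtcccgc
Gclm, chr3:122245393-122245461, plus strand: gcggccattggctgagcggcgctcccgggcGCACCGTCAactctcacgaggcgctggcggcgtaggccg
Txnrd1, chr10:82859084-82859152, plus strand: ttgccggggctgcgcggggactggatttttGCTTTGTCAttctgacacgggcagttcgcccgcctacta
The matches begin 102 and 45 bases upstream of the start in Srxn1, 97 in Osgin1, 134 in Gclm and 92 in Txnrd1.

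Of 31 measured genes of glutathione synthesis and use, 12 rose and 0 fell, 38.7% against 2.66% of all genes, with a median of 0.24. On the NRF2 list too are 5 of the 12: Slc7a11, Gclc, Gclm, Gsr and Gpx2. Slc3a2, the heavy chain that carries Slc7a11 to the membrane, rose by 1.12 ± 0.16, and Gstp1, a transferase, by 1.03. Gss, the synthase, rose by 0.71 (adjusted p = 0.0499) and passed in 4 of 18 fits that left out 1 array; it was lost without 0 hr replicate 1 or 3, any 1 of the 3 hr arrays or any 1 of 9 arrays of other groups. The amino acid carriers Slc1a4 and Slc1a5 rose by 1.76 ± 0.26 and 0.85 ± 0.15, and Cth, which makes cysteine from cystathionine, by 0.86. Gstp1 was lost without 0 hr replicate 3 or 3 hr replicate 1 or 3, and Cth without 0 hr replicate 2 or 3 hr replicate 1 or 3 (highest adjusted p = 0.0736 and 0.0826). Chac1 runs the other way in the pathway, since its enzyme splits glutathione. It went from 6.93, 6.80 and 6.82 to 8.82, 8.88 and 8.76, a rise of 1.97 ± 0.13 (adjusted p = 1.58e-07); the arrays of each time lay close together.

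Of 22 measured genes of haem and iron handling, 4 rose and 1 fell, 18.2% and 4.55% against 2.66% and 1.72% of all genes. The rises were Hmox1, the ferritin light chain Ftl1 (1.09 ± 0.13), the haem importer Slc48a1 (0.55 ± 0.12) and the haem exporter Flvcr1 (0.59 ± 0.14). Slc48a1 was lost without 3 hr replicate 1 or 3 (highest adjusted p = 0.0613), and Flvcr1 without 0 hr replicate 1 or 3 or without 3 hr replicate 1 or 3 (highest adjusted p = 0.126). Alas1, the first enzyme of haem synthesis, did not pass (0.32 ± 0.15, adjusted p = 0.273), and Blvrb, a biliverdin reductase, did not either (0.22 ± 0.11, adjusted p = 0.331). The single fall was Hamp, which encodes the iron hormone hepcidin and is also on the heart muscle list. It lay at 10.50, 9.94 and 8.26 at 0 hr and at 5.43, 4.90 and 5.29 at 3 hr, the largest fall in the comparison (-4.36 ± 0.53, adjusted p = 0.000106). With the heart muscle mean as a covariate its difference was -0.33.

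The integrated stress response, in which eIF2 alpha kinases raise translation of ATF4, had a similar share of risers. Of 35 measured targets 23 rose and 0 fell (65.7%), with a median of 0.70. Atf4 rose by 1.17 and its partners Atf3 and Ddit3, the latter encoding CHOP, by 2.81 ± 0.27 and 1.33 ± 0.16. Atf3 lay at 7.94, 6.98 and 7.14 at 0 hr and at 10.06, 10.73 and 9.71 at 3 hr. Asns, asparagine synthetase, went from a mean of 8.25 ± 0.25 (SD, n = 3) to 10.24 ± 0.21 (1.99 ± 0.17, adjusted p = 4.03e-06). Mthfd2, a mitochondrial folate enzyme, went from 6.60, 6.70 and 6.45 to 9.35, 8.58 and 9.88 (2.69 ± 0.34, adjusted p = 0.00017), with replicate 2 lowest at 3 hr. The arrays of the 2 times were separate in all 3 genes.

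Amino acid supply made up much of the rest of that list. The carriers Slc7a5 and Slc7a1 rose by 1.88 ± 0.19 and 1.04. Psat1 and Psph, enzymes of serine synthesis, rose by 1.38 ± 0.15 and 0.51, and Gpt2, an alanine transaminase, by 0.61. The transfer RNA synthetases Tars, Nars, Gars, Sars and Eprs rose by 1.09, 0.79, 0.77, 0.70 and 0.63. Sars was lost without 0 hr replicate 1 or 2 or any 1 of the 3 hr arrays, Gars without any 1 of the 0 hr arrays, 3 hr replicate 1 or 3 or 72 hr replicate 3, and Gpt2 without 0 hr replicate 1 or 3 or 3 hr replicate 1. Feedback genes rose as well: Ppp1r15a, which directs eIF2 alpha dephosphorylation, by 1.10, Sesn2, an inhibitor of mTORC1, by 1.07 ± 0.13, and Trib3, an inhibitor of ATF4, by 0.52, lost without 3 hr replicate 1 or 3. Ddit4, another mTORC1 inhibitor, rose by 0.44 ± 0.09 and was lost without 0 hr replicate 2 or 3 hr replicate 3 (highest adjusted p = 0.0768). Nupr1, a stress-induced chromatin protein, rose by 0.94. Cebpb and Cebpg, both able to pair with ATF4, did not pass (0.43 ± 0.12, adjusted p = 0.0591, and 0.19 ± 0.13, adjusted p = 0.518).

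The composite element that C/EBP and ATF4 bind as a pair was searched as TGATGNAA on both strands, since a C/EBP family member is deleted here. It stood in 3.08% of all promoters, in 6.24% of those of genes that rose and in 2.48% of those of genes that fell. Among 22 promoters of ATF4 list members that rose, 7 held it (31.8%). Matches are shown in capitals for the cystine carrier, the glutathione-splitting enzyme, asparagine synthetase and Atf3, on the strand of the gene in assembly GRCm38.p6.
Slc7a11, chr3:50443623-50443709, minus strand: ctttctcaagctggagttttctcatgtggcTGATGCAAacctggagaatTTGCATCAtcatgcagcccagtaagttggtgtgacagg
Chac1, chr2:119351019-119351086, plus strand: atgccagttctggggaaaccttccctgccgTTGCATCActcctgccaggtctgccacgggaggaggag
Asns, chr6:7693210-7693262, minus strand: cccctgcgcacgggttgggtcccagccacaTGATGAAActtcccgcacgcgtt
Atf3, chr1:191183406-191183473, minus strand: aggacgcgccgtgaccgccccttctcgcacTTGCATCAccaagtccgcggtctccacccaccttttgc
Slc7a11 holds the letters on both strands, 66 and 47 bases upstream. In Chac1 and Atf3 they lie on the opposite strand, 193 and 110 bases upstream, and in Asns on the strand of the gene, 23 bases upstream. These letters need not overlap the antioxidant response element, which stood in 22.7% of the promoters on the ATF4 list.

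Chaperones of the endoplasmic reticulum did not move as a group: of 24 measured, 3 rose (12.5% against 2.66% of all genes), and the median was -0.033. The risers were Dnajb9 (1.08 ± 0.14), a co-chaperone, Ern1 (0.49 ± 0.09), the sensor IRE1, and Herpud1 (0.68 ± 0.15), a part of the degradation complex. Herpud1 was lost without 0 hr replicate 2 or 3 hr replicate 1 (highest adjusted p = 0.081). Xbp1, the target of IRE1, had a difference of 0.36 ± 0.11 (adjusted p = 0.0908), and Pdia4 and Dnajb11 were lower without passing (-0.30 ± 0.16 and -0.30 ± 0.11).

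Of 28 measured heat shock genes 4 rose and 1 fell, 14.3% and 3.57% against 2.66% and 1.72% of all genes. Hspa1a, the inducible HSP70, lay at 9.64, 7.69 and 8.06 at 0 hr and at 10.45, 11.07 and 10.68 at 3 hr (2.27 ± 0.37, adjusted p = 0.00159). Its co-chaperone Dnajb1 went from 8.27, 7.64 and 7.78 to 9.42, 10.78 and 9.93 (2.15 ± 0.29, adjusted p = 0.00027). In both genes replicate 2 was the highest array of 3 hr, unlike in most rises. Dnajb4 rose by 0.67 ± 0.12, and the mitochondrial Hspa9 by 0.51 ± 0.11, which was lost without 0 hr replicate 3 or 3 hr replicate 1 or 3 (highest adjusted p = 0.0806). Hsp90aa1 and Dnaja1, abundant partners of HSP70, had differences of 0.31 ± 0.10 and 0.44 ± 0.15 that did not pass. Cryab, a small heat shock protein of heart muscle, fell by 0.74 ± 0.12, and all its Cebpa d/d 0 hr arrays were above the other 15 arrays of the series. GAANNTTC, a heat shock element, stood in 6.43% of promoters of genes that rose and in 6.73% of all promoters.

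Metallothioneins, which bind zinc and trap oxidants, rose strongly. Mt2 went from 10.36, 9.10 and 9.32 to 12.51, 12.26 and 12.83 (2.94 ± 0.37, adjusted p = 0.000153) and Mt1 from 10.68, 9.65 and 10.16 to 12.22, 12.16 and 12.70 (2.20 ± 0.28, adjusted p = 0.000182). Of 11 measured genes of metal handling these 2 and Slc30a10, a metal exporter, rose, 27.3% against 2.66% of all genes. Slc30a10 (0.43 ± 0.11) was lost without any 1 of the 0 hr arrays and without 3 hr replicate 1 or 3 (highest adjusted p = 0.184). Mtf1, the factor that senses zinc, and Slc30a1, its zinc exporter target, did not pass (0.38 ± 0.11 and 0.48 ± 0.17).

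Immediate early genes, whose transcription follows growth factor and stress signals without new protein, were still raised at 3 hr. Of 38 measured, 20 rose and 0 fell, 52.6% against 2.66% of all genes, with a median of 0.71. Egr1, a zinc finger factor, lay at 7.15, 6.81 and 7.21 and then at 9.69, 9.69 and 9.92 (2.71 ± 0.26, adjusted p = 1.51e-05). Myc went from 8.04, 7.15 and 7.26 to 10.15, 10.04 and 10.43 (2.72 ± 0.28, adjusted p = 2.44e-05). Fos went from 7.05, 6.61 and 6.67 to 8.37, 8.35 and 8.62 (1.67 ± 0.22, adjusted p = 0.00022). No array of 3 hr overlapped one of 0 hr in these genes, and replicate 1 was the highest 0 hr array of Myc and Fos.

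Other AP-1 and EGR members followed. Egr2 rose by 2.20 ± 0.45, Fosl1 by 1.70, Jun by 1.15 ± 0.17, Fosb by 0.72 and Junb by 0.68. Maff, a small partner of NRF2 and AP-1, rose by 1.10 ± 0.15. Gadd45a and Gadd45g, which activate p38 signalling, rose by 1.53 ± 0.16 and 1.21, and Zfp36, which destabilises cytokine messages, by 0.97 ± 0.12. Ier2, Ier3, Ier5 and the orphan receptor Nr4a1 rose by 1.59, 0.99, 0.92 and 1.11. Fosb was lost without 0 hr replicate 1 or 3 hr replicate 1 or 3, and Junb without 0 hr replicate 2 or 3 hr replicate 3. Ier3 was lost without any 1 of the 0 hr arrays or 3 hr replicate 1 or 3, and Nr4a1 without 0 hr replicate 2 or 3 or 3 hr replicate 3. Btg2 (0.96 ± 0.20) and Klf6 (0.69 ± 0.14) were each lost without 0 hr replicate 2 or 3 hr replicate 3 (highest adjusted p = 0.066 and 0.0642). The matrix signal Ccn1 and the clock gene Per1 were higher without passing (0.94 ± 0.33 and 0.49 ± 0.18).

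Among 18 measured ligands, receptors and inhibitors of the EGF receptor pathway 2 rose and 1 fell. These were 11.1% and 5.56%, against 2.66% and 1.72% of all genes. Hbegf, a ligand that is shed from the cell surface, lay at 7.87, 8.14 and 7.76 and then at 10.05, 9.40 and 9.81. Its rise of 1.83 ± 0.50 had an adjusted p of 0.0487, and it passed in only 5 of 18 fits that left out 1 array (highest adjusted p = 0.174), since it was lost without any 1 of the 6 arrays compared or of 7 others. The other riser was Errfi1, an inhibitor of the receptor (1.17 ± 0.27), lost without 0 hr replicate 2 or 3 hr replicate 1 or 3. Ereg had a difference of 1.26 ± 0.59 and Egfr of 0.47 ± 0.17, neither of which passed. The receptor Erbb4 fell by 0.45 ± 0.12 (adjusted p = 0.0463) and passed in 7 of those 18 fits; it was lost without 0 hr replicate 1 or 2, without 3 hr replicate 2 or 3, or without any 1 of 7 arrays of other groups. Among 18 feedback inhibitors of MAP kinases 4 rose, 22.2% against 2.66% of all genes. These were Phlda1 (1.18 ± 0.20), Errfi1, Dusp1 (0.85 ± 0.20) and Dusp16 (0.63 ± 0.15). Dusp1 was lost without 0 hr replicate 2 or 3 or 3 hr replicate 2 or 3, and Dusp16 without 0 hr replicate 2 or 3 or 3 hr replicate 1 or 3 (highest adjusted p = 0.134 and 0.113).

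Prostaglandin synthesis was represented by its inducible enzyme. Ptgs2, which encodes COX-2, lay at 8.95, 8.75 and 7.72 at 0 hr and at 10.61, 11.11 and 10.83 at 3 hr (2.38 ± 0.24, adjusted p = 1.73e-05). Ptger4, a receptor of prostaglandin E2, rose by 1.28 ± 0.16 from 6.84, 6.84 and 6.48 to 8.26, 7.94 and 7.79, and Ptgfr, the receptor of prostaglandin F2 alpha, fell by 0.91 ± 0.18. Of 20 measured genes of the pathway no other passed; Ptges and Tbxas1, terminal synthases, had differences of -0.33 ± 0.23 and -0.10 ± 0.08.

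Cytokines were raised in few cases, 8.82% of the list against 2.66% of all genes, and unevenly. Of 34 measured, 3 rose: Cxcl5, an attractant of neutrophils, from 6.10, 6.09 and 5.87 to 7.24, 7.14 and 8.29 (1.53 ± 0.24, adjusted p = 0.00123), Lif (1.29 ± 0.18) and Ccl7 (0.67 ± 0.14). The last was lost without 3 hr replicate 3 (adjusted p = 0.0834). Il6 had a mean difference of 3.30 ± 1.07 and still did not pass (adjusted p = 0.102): its 3 hr arrays read 7.89, 4.48 and 10.09 against 4.11, 4.28 and 4.18 at 0 hr. Replicate 2 of 3 hr was thus near the 0 hr level while the other 2 were far above it. Ccl2 showed the same order, with 8.61, 6.81 and 8.11 against 6.67, 6.53 and 6.47 (1.29 ± 0.46, adjusted p = 0.142). Targets of NF-kappaB gave no call among 21 measured, with a median of 0.097; 5 were higher and 1 lower at an unadjusted p under 0.05. Nfkbiz and Icam1 had differences of 0.47 ± 0.17 and 0.24 ± 0.18. Neutrophil genes gave no call among 18, 1 at an unadjusted p under 0.05, and S100a9 read 8.21, 9.23 and 8.15 and then 8.18, 9.92 and 9.43.

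Myc was accompanied by genes of ribosome assembly, many of which it is known to activate. Of 34 measured, 15 rose and 0 fell, 44.1% against 2.66% of all genes. The median was 0.45, and all 34 had a higher mean at 3 hr. Gnl3, a nucleolar GTPase, went from 8.88, 8.76 and 8.34 to 10.11, 9.80 and 10.22 (1.38 ± 0.15, adjusted p = 5.07e-05). The box C/D proteins Nop58 and Nop56 rose by 1.19 ± 0.15 and 1.05 ± 0.17. Ltv1, Wdr43, Tsr1, Ftsj3, Rrs1, Ddx21, Pno1, Nob1, Heatr1, Gar1 and Nolc1 rose by 0.41 to 0.89, of which Ltv1, Tsr1 and Ftsj3 passed whichever array was left out. Wdr43 was lost without 3 hr replicate 3 (adjusted p = 0.0594) and Nob1 without 0 hr replicate 3 or 3 hr replicate 1 or 3. Rrs1 and Ddx21 were lost without 0 hr replicate 2 or 3 or 3 hr replicate 1 or 3, and Heatr1 and Nolc1 without 0 hr replicate 1 or 3 or 3 hr replicate 1 or 3. Pno1 and Gar1 were lost without any 1 of the 0 hr arrays or 3 hr replicate 1 or 3, and Gar1 (adjusted p = 0.0446) also without any 1 of 6 arrays of other groups. Genes of DNA replication and mitosis did not move with them. Pcna alone passed among 27 replication genes (0.47 ± 0.12, adjusted p = 0.0393; lost without 0 hr replicate 2 or 3, 3 hr replicate 1 or 3 or any 1 of 4 arrays of other groups), and of 29 mitosis genes none passed in limma and 1 was higher at an unadjusted p under 0.05; Mki67 had a difference of -0.32 ± 0.21.

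MicroRNA genes included the polycistron of the miR-17-92 cluster, a known target of Myc. Of 287 microRNA genes tested, host transcripts left out, 11 rose, 3.83% against 2.66% of all genes, and 1 fell. The array does not separate the hairpin or primary transcript from the mature strand, so mature levels were not measured. The cluster was listed after its values had been seen: Mir18 went from 5.14, 4.74 and 4.45 to 7.32, 6.34 and 7.88 (2.40 ± 0.37, adjusted p = 0.001) and Mir17 from 4.99, 4.84 and 5.11 to 6.33, 6.49 and 7.02 (1.63 ± 0.28, adjusted p = 0.00256). Mir19b-1 (0.93 ± 0.22) and the host transcript Mir17hg (0.59 ± 0.14) passed with all arrays but were both lost without 0 hr replicate 2 or 3 or 3 hr replicate 1 or 3, and the former also without 0 hr replicate 1 (highest adjusted p = 0.135 and 0.141), and Mir20a and Mir19a did not pass. The other microRNA genes named here were also chosen after their values had been seen. Mir30a lay at 5.27, 6.12 and 5.73 and then at 7.40, 7.25 and 7.45 (1.66 ± 0.34), and Mir30c-2 rose by 0.81 ± 0.18. Mir29a and Mir29b-1 rose by 0.62 ± 0.16 and 0.54 ± 0.09, at levels near the floor. Mir29a lay at 3.84, 3.98 and 3.62 and then at 4.01, 4.35 and 4.94. Mir29b-1 lay at 3.12, 3.11 and 3.1 and then at 3.83, 3.44 and 3.69. Mir19b-1 also began low, between 4.03 and 4.15. The lowest value of the data was 2.53 and the lowest array median 6.48. Mir30a was lost without 0 hr replicate 1 (adjusted p = 0.0503) and Mir30c-2 without 0 hr replicate 2 or 3 or 3 hr replicate 1. Mir29a was lost without any 1 of the 0 hr arrays, 3 hr replicate 2 or 3 or control 72 hr replicate 3. Mature strands from RefSeq are shown for these 6 genes because they fall into families by their seed, bases 2 to 8, in capitals.
mmu-miR-17-5p: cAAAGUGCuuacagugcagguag
mmu-miR-18a-5p: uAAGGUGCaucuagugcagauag
mmu-miR-30a-5p: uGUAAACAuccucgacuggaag
mmu-miR-30c-5p: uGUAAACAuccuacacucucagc
mmu-miR-29a-3p: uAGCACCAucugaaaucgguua
mmu-miR-29b-3p: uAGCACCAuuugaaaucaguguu
The strands of Mir30a and Mir30c-2 share the seed GUAAACA and those of Mir29a and Mir29b-1 share AGCACCA, while Mir17 and Mir18 carry AAAGUGC and AAGGUGC.

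Hormone, damage and fuel lists held risers in 29.2%, 17.4% and 10.7% of their members, against 2.66% of all genes. Of 24 glucocorticoid targets 7 rose, 6 of which other lists hold too: Mt1, Mt2, Errfi1, Dusp1, Ddit4 and Cebpd. The other was Sgk1 (0.78 ± 0.17), lost without 0 hr replicate 2 or 3 hr replicate 3 (highest adjusted p = 0.0797). Of 23 p53 targets 4 rose, led by Plk3, a stress kinase, from 6.08, 5.99 and 6.13 to 8.11, 8.04 and 8.41 (2.12 ± 0.20). Mdm2, the ligase of p53, rose by 0.71 ± 0.12, and Ccng1 and Sesn1 were lower without passing (-0.45 ± 0.13 and -0.52 ± 0.15). Of 28 genes of glucose use, Slc2a1, the main glucose carrier, rose by 1.16 ± 0.16, Slc2a3 by 0.51 ± 0.09 and Pfkp by 0.52 ± 0.14, while the prolyl hydroxylase Egln1 fell by 0.46 ± 0.10. Pfkp was lost without 0 hr replicate 2 or 3, 3 hr replicate 1 or 3 or any 1 of 3 arrays of other groups, and Egln1 without 0 hr replicate 1 or 2 or 3 hr replicate 1 or 3. Among 19 clock genes and 25 of sterol and fatty acid synthesis no gene passed in limma, with medians of 0.16 and -0.03 and with 3 and 7 genes at an unadjusted p under 0.05.

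Other large rises, and lists with few calls, follow. Eid3, a protein related to EID1, went from 7.04, 7.67 and 7.63 to 9.68, 9.88 and 10.01 (2.40 ± 0.20, adjusted p = 2.84e-06). Gch1, the first enzyme of tetrahydrobiopterin synthesis, went from 8.90, 7.88 and 7.41 to 10.51, 9.23 and 10.41 (1.99 ± 0.41) and was lost without 3 hr replicate 1 or 3 (highest adjusted p = 0.0599). Thbs1, a matrix protein among 24 SRF and YAP targets, went from 9.26, 8.47 and 8.25 to 11.03, 10.52 and 11.30 (2.29 ± 0.50) and was lost without 0 hr replicate 2 or 3 or 3 hr replicate 1 or 3 (highest adjusted p = 0.0742). It was the only riser on that list, where Ankrd1 (-1.90 ± 0.38), Tpm1 and Crim1 (-0.39 ± 0.10) fell. The shares were 4.17% and 12.5%, against 2.66% and 1.72% of all genes. Ankrd1, a gene strong in heart muscle, was lost without 0 hr replicate 2 (adjusted p = 0.0511), and Crim1 without 0 hr replicate 2 or 3 or 3 hr replicate 1 or 3. Of 17 Kruppel-like factors Klf5 and Klf6 rose (11.8%). Of 34 genes of aldehyde, carbonyl, ester and sulphate metabolism, 11.8% rose and 2.94% fell. The rises were Cbr3, Akr1b8, Nqo1 and Aox1, all described above. Aldh1a2, which makes retinoic acid, fell by 0.58 ± 0.16. Its call was lost without 0 hr replicate 1 or 2, any 1 of the 3 hr arrays or any 1 of 9 arrays of other groups. Uchl1, a deubiquitinase used as a neuroendocrine marker, rose by 1.03 ± 0.21 alone among 13 such markers and was lost without 0 hr replicate 2 or 3 hr replicate 1 or 3. Of 19 lymphocyte genes none passed in limma and 6 were lower at an unadjusted p under 0.05. None of 2 red blood cell and 4 sex-linked genes passed in limma or had an unadjusted p under 0.05.

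**Figure D2:**
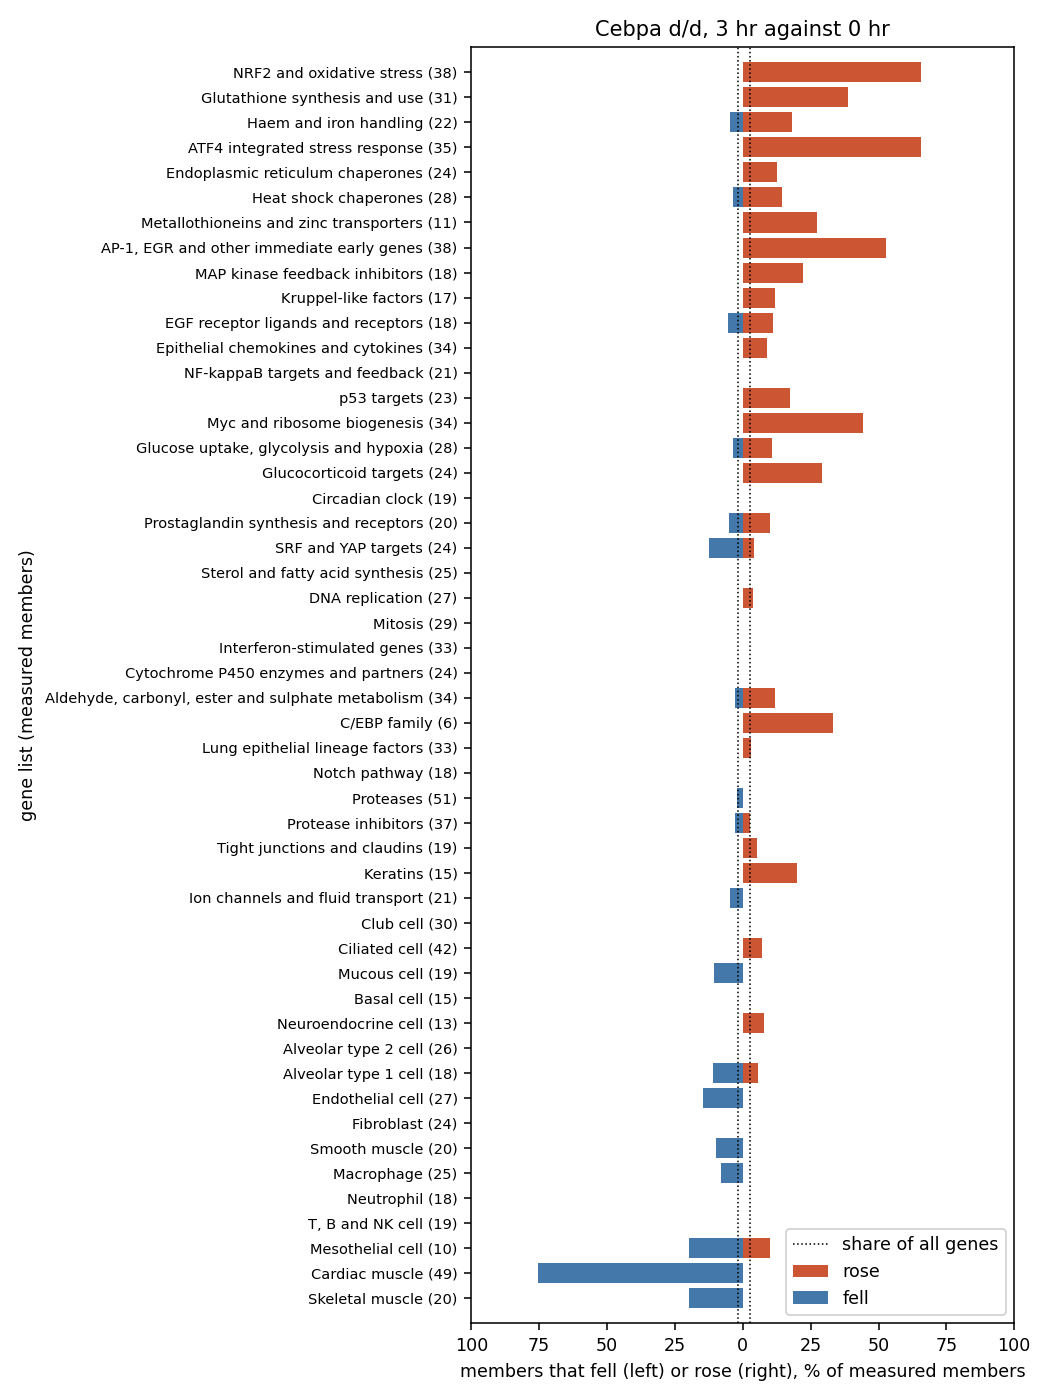
Share of measured members (%, horizontal axis) that rose, to the right, or fell, to the left, from 0 to 3 hr in Cebpa d/d for each gene list (vertical axis, number of measured members in brackets); dotted lines mark the shares of all genes, 2.66% and 1.72%. The NRF2, ATF4 and immediate early lists reach 65.8%, 65.7% and 52.6% to the right, and the heart muscle list reaches 75.5% to the left.

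Club cell identity did not change detectably in the first 3 hr. Of 30 measured club cell markers none rose and none fell in limma, 3 were higher and 3 lower at an unadjusted p under 0.05, and the median was 0.029. Scgb1a1 lay at 12.83, 12.82 and 12.84 at 0 hr and at 12.73, 12.98 and 12.81 at 3 hr (0.01 ± 0.08), and Cyp2f2 at 13.04, 13.18 and 13.16 and then at 13.16, 13.11 and 13.22 (0.04 ± 0.12). Aldh1a1 and Cbr2, enzymes abundant in club cells, differed by 0.10 ± 0.11 and 0.06 ± 0.10. These levels are near the top of the scale, whose highest value was 13.93, and saturation was not examined. Among 24 P450 genes and partners no call was made in limma and 7 had an unadjusted p under 0.05, with Cyp2s1 at 0.34 ± 0.19 and Cyp2b10 at -0.28 ± 0.17. Scgb3a1, a secretoglobin of larger airways, read 11.62, 10.72 and 10.52 and then 6.89, 9.19 and 10.39, too wide a spread to pass (-2.13 ± 0.89, adjusted p = 0.216).

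Keratins of simple epithelium rose. Krt18 went from 9.79, 10.13 and 9.87 to 11.34, 10.67 and 11.35 (1.19 ± 0.21), Krt19 from 9.84, 9.99 and 9.70 to 11.36, 10.68 and 10.98 (1.16 ± 0.23), and Krt8 from 11.30, 11.29 and 11.10 to 12.42, 11.74 and 12.36 (0.94 ± 0.21). They were 20.0% of the 15 keratins measured, against 2.66% of all genes. All 3 were lowest in replicate 2 at 3 hr. Krt19 was lost without 3 hr replicate 1, and Krt8 without 0 hr replicate 3 or 3 hr replicate 1 or 3 (highest adjusted p = 0.0538 and 0.0898). The other 12 keratins measured did not pass, the basal cell keratins Krt5 and Krt14 among them (both -0.05). Sfn, the epithelial 14-3-3 sigma, rose by 1.97 ± 0.39 from 6.51, 6.44 and 6.52 to 8.66, 7.87 and 8.86, and Cldn7, a tight junction protein, by 0.86 ± 0.15. The 18 other tight junction genes did not pass.

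Of 33 measured transcription factors of the lung epithelium Klf5 alone passed (0.55 ± 0.13; lost without 0 hr replicate 1 or 2 or 3 hr replicate 1 or 3). At an unadjusted p under 0.05, 2 were higher and 6 lower. Sox2, Hopx and Nfib had differences of -0.27 ± 0.12, -0.35 ± 0.12 and -0.26 ± 0.10, none of which passed. In the C/EBP family, 2 of 6 measured genes (33.3%, against 2.66% of all genes) rose. These were Ddit3 and Cebpd, the latter from 8.87, 7.88 and 8.22 to 9.28, 9.0 and 9.81 (1.04 ± 0.24, adjusted p = 0.0195, lost without 0 hr replicate 2 or 3 or 3 hr replicate 1 or 3). Cebpe did not pass (-0.06 ± 0.13). Basal cell and Notch lists, of 15 and 18 genes, gave no call in limma, with 4 genes each at an unadjusted p under 0.05.

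Of 42 measured ciliated cell genes, 3 rose in Cebpa d/d, 7.14% against 2.66% of all genes. These were Efcab10 (0.61 ± 0.12), Rsph9 (0.62 ± 0.15) and Dynlrb2 (0.53 ± 0.13), all parts of the axoneme or its assembly. Rsph9 was lost without 0 hr replicate 1 or 2 or any 1 of the 3 hr arrays, and Dynlrb2 without 0 hr replicate 2 or 3 or 3 hr replicate 1 or 2. The median difference was 0.23 in Cebpa d/d and -0.27 in control, where 2 members fell. With the heart muscle mean of each array as a covariate the Cebpa d/d median was -0.49, of the opposite sign. For 15 of the 42 the difference between the genotypes had an unadjusted p under 0.05, and none passed in limma. Ift80, an intraflagellar transport gene, lay at 7.70, 7.78 and 7.85 and then at 7.97, 7.99 and 8.05 in Cebpa d/d (0.23 ± 0.10, adjusted p = 0.253) against a fall of 0.43 in control. The difference between the genotypes was 0.66 for Ift80 (adjusted p = 0.192), the smallest adjusted p on the list. The mean of the list over arrays was 8.20, 8.16 and 8.38 and then 8.39, 8.60 and 8.38 in Cebpa d/d, against 8.46, 8.82 and 8.95 and then 8.79, 8.45 and 8.09 in control. Control thus overlapped between times, and in Cebpa d/d the 2 times met at 8.38. The Cebpa d/d arrays of 0 hr lay below the control arrays of 0 hr. Foxj1, the master factor of these cells, differed by 0.05 ± 0.13.

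**Figure D3:**
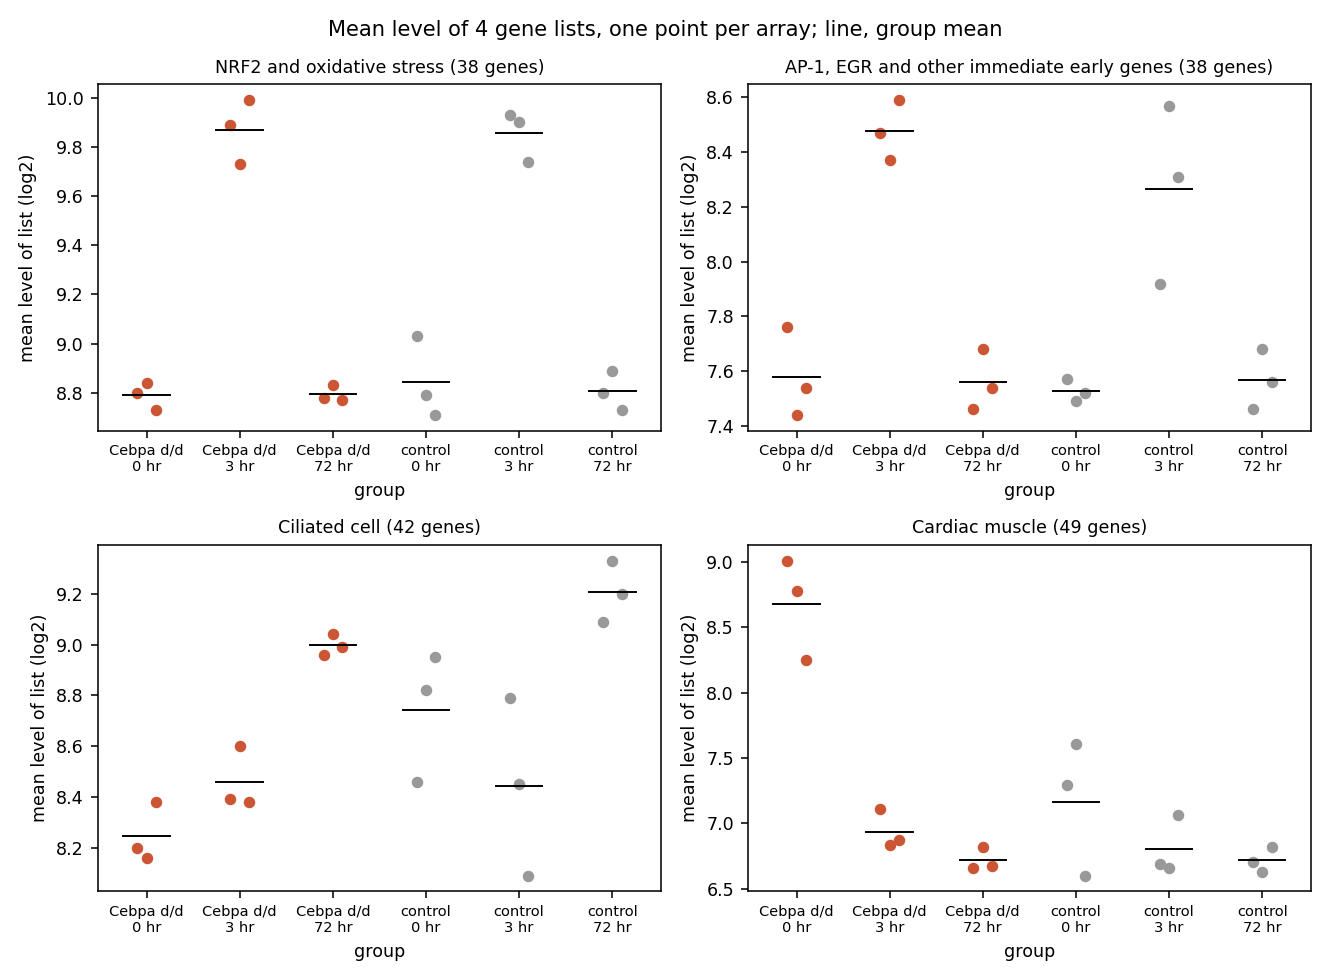
Mean level (log2, vertical axes) of the NRF2, immediate early, ciliated cell and heart muscle lists in each array, by group (horizontal axes), with a line at the group mean. In Cebpa d/d the NRF2 mean moves from between 8.73 and 8.84 at 0 hr to between 9.73 and 9.99 at 3 hr and lies between 8.77 and 8.83 at 72 hr; the heart muscle mean is 8.25 or more in the 3 Cebpa d/d arrays of 0 hr and 7.61 or less in the other 15.

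The falls were led by muscle genes. Of 49 heart muscle genes 37 fell and 0 rose, with a median of -1.90, and 38 had all Cebpa d/d 0 hr arrays above all 15 other arrays of the series, a pattern that 183 of all genes (0.918%) showed. After Hamp the largest falls were Myl7, the atrial light chain, from 11.64, 11.51 and 10.71 to 8.25, 7.25 and 7.59 (-3.59 ± 0.67), and Myoz2, a protein of the Z disc, from 10.80, 10.48 and 9.26 to 6.89, 6.34 and 6.89 (-3.47 ± 0.55). Myh6, the alpha myosin heavy chain, fell by 3.44 ± 0.53, and Cox7a1 and Cox8b, muscle forms of cytochrome oxidase subunits, by 3.30 ± 0.44 and 3.23 ± 0.47. Replicate 3 of 0 hr was the lowest of its group in each of these genes, and all 6 passed whichever array was left out. In control no heart muscle gene passed in limma, 13 had an unadjusted p under 0.05, and the median was -0.19. Of 20 skeletal muscle genes 4 fell (20.0% against 1.72% of all genes): Eno3 (-1.87 ± 0.19), Casq1 (-1.24 ± 0.28), Tnnt3 (-1.23 ± 0.18) and Ckm (-0.34 ± 0.09). Casq1 was lost without 0 hr replicate 1 or 2 or 3 hr replicate 1 or 3, and Ckm without any 1 of the 0 hr arrays, 3 hr replicate 1 or 3 or any 1 of 9 arrays of other groups. Tnnt3, unlike Eno3, was highest in replicate 3 at 0 hr.

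The pattern of high levels at 0 hr in Cebpa d/d reached beyond those lists. It held for 117 of the 343 falls (34.1%), 80 of them on neither muscle list. Of the 25 largest falls outside the lists 17 showed it, and their leading names are themselves known from muscle: Pgam2, the muscle phosphoglycerate mutase, fell by 2.80 ± 0.23 from 10.15, 9.79 and 9.54 to 7.42, 6.68 and 6.97, and Mhrt, a transcript from the cardiac myosin locus, by 2.37 ± 0.30. Cmya5, Lmod2 and Txlnb, all expressed in striated muscle, fell by 2.32 ± 0.26, 2.12 ± 0.25 and 2.02 ± 0.25. Of the 25 largest falls, 5 also fell in control: Pgam2, Mylk4, Sh3bgr, Gbp4 and Cpe. The call was lost without 1 of the Cebpa d/d arrays of 0 or 3 hr in 6 of the 25, namely Adipoq, Muc16, Cpe, Lrat, Gbp4 and Fabp4. Adipoq and Cpe were lost without 0 hr replicate 1 or 2 or any 1 of the 3 hr arrays, and Muc16 without 0 hr replicate 1 or 2 or 3 hr replicate 2 or 3. Lrat and Gbp4 were lost without 0 hr replicate 1 or 2 or 3 hr replicate 3, and Fabp4 without 3 hr replicate 1. In the order first named, the highest adjusted p values were 0.147, 0.148, 0.132, 0.103, 0.108 and 0.0633.

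Fat cell genes fell beside them, on a list chosen after the values had been seen. Of 16 measured, 4 fell and 1 rose. Car3, a carbonic anhydrase of fat and muscle, lay at 8.65, 7.28 and 6.85 and then at 5.65, 5.88 and 5.62 (-1.88 ± 0.35). Adipoq, the fat hormone adiponectin, lay at 7.92, 7.29 and 5.53 and then at 5.12, 5.40 and 5.24 (-1.66 ± 0.42), Fabp4 fell by 1.57 ± 0.33 and Lpl by 1.02 ± 0.20. These genes were highest in replicate 1 of 0 hr, as the list mean was, with 7.58, 7.02 and 6.79 at 0 hr and 6.71, 6.69 and 6.76 at 3 hr. Fabp4 and Lpl are on the macrophage list too, where no other of 25 measured genes passed. The gene that rose, Pparg, is also a factor of fat cells, yet it moved the opposite way, from 8.58, 8.81 and 8.39 to 9.82, 9.57 and 9.63 (1.08 ± 0.14).

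The heart muscle level was then entered as a covariate, the mean of the list in each array. Within Cebpa d/d it did not overlap between 0 and 3 hr, so time and this level cannot be told apart there. The slope of the covariate comes from the spread of the list mean among arrays within each group. That spread was widest at 0 hr, from 6.60 to 7.61 in control and from 8.25 to 9.01 in Cebpa d/d. At 72 hr the list mean ran only from 6.63 to 6.82 in control and from 6.66 to 6.82 in Cebpa d/d. The median SE over genes grew from 0.119 to 0.276, and 6 rises and 0 falls passed: Slc7a11 (5.23), Hmox1 (4.01), Ptgs2 (3.65), Srxn1 (2.88), Chac1 (2.0) and Osgin1 (1.95). Their adjusted p values were 0.0105, 0.000168, 0.00306, 0.000823, 0.0379 and 0.019. Of the 531 rises 518 (97.6%) were still higher at 3 hr, and of the 343 falls 296 (86.3%) were still lower. The median of the 117 rises of at least 2-fold went from 1.29 to 1.5, while the median of muscle list falls went from -2.22 to -0.286. Of the muscle list falls 37 are on the list whose mean is the covariate, so their move toward 0 is given by its definition. The estimate turned positive in Myl7 (1.66), Myoz2 (1.01), Myh6 (0.62), Cox8b (0.51) and Adipoq (0.65).

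**Figure D4:**
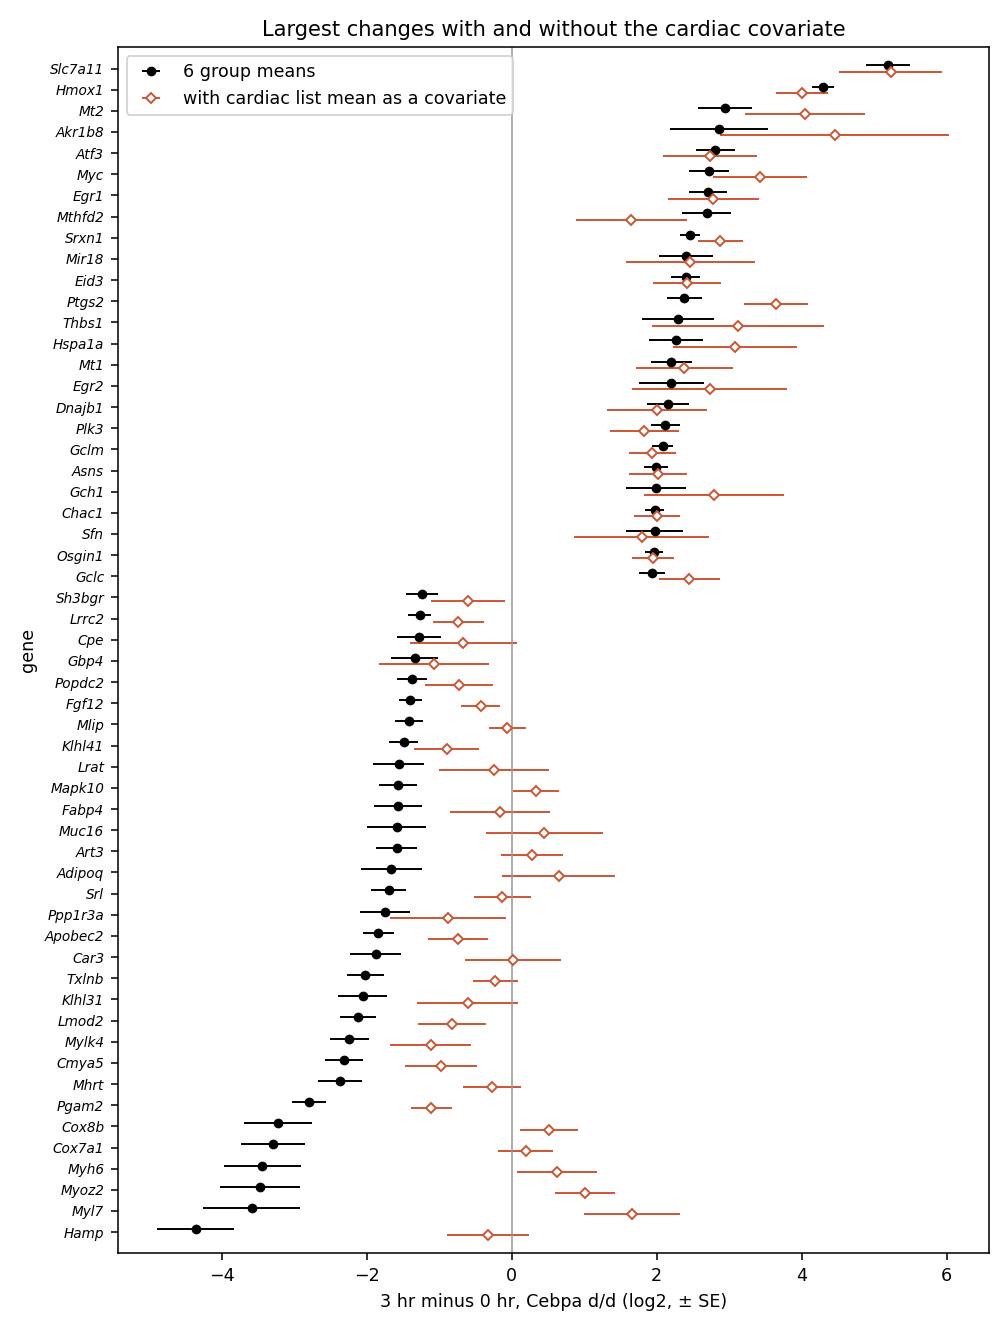
Change from 0 to 3 hr in Cebpa d/d (log2 ± SE, horizontal axis) of the largest rises and falls (vertical axis), filled circles for the model of 6 group means and open diamonds with the heart muscle list mean as a covariate. Hmox1 lies at 4.29 and 4.01 and Ptgs2 at 2.38 and 3.65, while the muscle falls move toward or past 0, with Myl7 at -3.59 and 1.66. For members of the heart muscle list this move is given by the covariate, which is their own mean. The error bars are wider with the covariate.

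Falls without that pattern numbered 226, of which 75 fell in control as well, and they include genes of the vessel wall and alveolus. Endothelial genes had a median of -0.40, 4 of 27 fell (14.8% against 1.72% of all genes) and 0 rose. Tek, the angiopoietin receptor, went from 9.95, 10.20 and 9.73 to 9.08, 9.16 and 8.73 (-0.97 ± 0.17, adjusted p = 0.00278), and Flt1, a receptor of VEGF, from 9.15, 9.30 and 8.90 to 8.23, 8.22 and 8.41 (-0.83 ± 0.16). Tmem100 and Aplnr fell by 0.98 ± 0.25 and 1.15 ± 0.31; Tmem100 was lost without 0 hr replicate 1 or 2 or 3 hr replicate 3, and Aplnr passed in 5 of 18 fits that left out 1 array, lost without any 1 of the 0 hr arrays, 3 hr replicate 1 or 3 or any 1 of 8 arrays of other groups. The defining markers Pecam1, Cdh5 and Kdr were lower without passing (-0.42 ± 0.15, -0.38 ± 0.18 and -0.54 ± 0.26). In control 6 endothelial genes fell, with a median of -0.43.

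Alveolar type 1, smooth muscle, fibroblast and mesothelial genes leaned the same way. In the alveolar type 1 list of 18, 11.1% fell and 5.56% rose, against 1.72% and 2.66% of all genes. Akap5 fell by 0.82 ± 0.14 and Rtkn2 by 0.92 ± 0.19, Gprc5a rose by 0.47 ± 0.11, and the median was -0.28. Rtkn2 was lost without 3 hr replicate 3, and Gprc5a without 0 hr replicate 2 or 3 hr replicate 1 or 3. Smooth muscle genes had a median of -0.25, and Mylk (-0.47 ± 0.10) and Tpm1 (-0.53 ± 0.11) fell; Mylk was lost without 3 hr replicate 1 or 3 and Tpm1 without 0 hr replicate 1. No fibroblast gene of 24 passed in limma, with a median of -0.32 and 10 lower at an unadjusted p under 0.05, while 5 fell in control. Of 10 mesothelial genes, Gpm6a fell by 1.22 ± 0.25, lost without 0 hr replicate 1 or 3 hr replicate 3, Muc16 fell by 1.59 ± 0.41 and Krt19 rose, which the keratin list holds too. Of 26 alveolar type 2 genes none passed in limma and 4 were lower at an unadjusted p under 0.05 (median -0.16), and Sftpc differed by -0.04 ± 0.08. The part of a changed cell mix in these differences was not tested.

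Secretory and interferon genes add single falls. Tff2, a trefoil peptide of mucous cells, lay at 8.37, 8.10 and 8.13 and then at 6.96, 6.85 and 7.08 (-1.24 ± 0.21). All its 0 hr Cebpa d/d arrays were above the other 15. Beside Muc16 it was 1 of 2 falls among 19 mucous cell genes, 10.5% against 1.72% of all genes. Muc5b, the main mucin here, read 8.53, 8.63 and 8.60 and then 6.55, 7.86 and 8.46 and did not pass (-0.96 ± 0.51). No interferon-stimulated gene of 33 passed in limma, and the median was -0.18. At an unadjusted p under 0.05, 6 were lower, where 3435 of all 19938 genes had such a p in either direction. Among 7 guanylate-binding proteins, listed after their values had been seen, Gbp4 and Gbp7 fell by 1.34 ± 0.32 and 1.18 ± 0.27. They were 28.6% of the list, against 1.72% of all genes, and the list median was -0.83 in both genotypes. Gbp7 was lost without 0 hr replicate 1 or 2 or 3 hr replicate 1 or 3. The channel Ano1 fell by 0.78 ± 0.19, alone among 21 ion transport genes, and was lost without 0 hr replicate 1 or 2 or 3 hr replicate 1 or 2.

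Proteases and their inhibitors, which the title of the series names, were called at 3 hr about as often as all genes. Of the proteases 0% rose and 1.96% fell, and of the inhibitors 2.7% rose and 2.7% fell. The shares of all genes were 2.66% and 1.72%. Of 51 proteases, Prss23, a serine protease, alone passed, from 8.36, 8.24 and 7.81 to 7.47, 7.45 and 7.28 (-0.74 ± 0.14, adjusted p = 0.00582). Adamts4 and Mmp13 had differences of 0.52 ± 0.20 and 0.24 ± 0.09 that did not pass. Of 37 inhibitors, Serpina3n rose from 8.69, 8.27 and 8.06 to 9.89, 9.44 and 11.20 (1.84 ± 0.45, adjusted p = 0.026), and Reck, a membrane inhibitor of metalloproteinases, fell by 0.58 ± 0.15. Serpina3n was lost without 0 hr replicate 2 or 3 or 3 hr replicate 1 or 3, and Reck without 0 hr replicate 1 or 2 or 3 hr replicate 1 or 3. Timp1 read 6.26, 6.27 and 6.09 and then 8.18, 6.76 and 9.02, a difference of 1.78 ± 0.64 that did not pass (adjusted p = 0.146). Slpi and Spink5 differed by -0.26 ± 0.26 and 0.19 ± 0.15.

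The 3 hr arrays did not respond alike. Replicate 2 was the lowest of the 3 in 373 of the 531 rises (70.2%), and replicate 3 the highest in 277 (52.2%). Il6, Timp1, Akr1b8, Mir18 and Krt8 were examples, while Hspa1a, Dnajb1 and Atf3 were highest in replicate 2. At 0 hr replicate 3 was the lowest in 220 of the 343 falls (64.1%), as in the heart muscle mean. Replicate 2 of 3 hr was female and the other 2 male; the part of sex or of any other difference between these arrays was not tested beyond a fit with sex as a covariate, which gave 823 calls.

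In control airway 374 genes rose and 323 fell from 0 to 3 hr, 1.88% and 1.62% of those tested, in arrays that the Cebpa d/d comparison does not share. Of the Cebpa d/d rises 240 also rose in control, 45.2% of the Cebpa d/d rises and 64.2% of the control rises. Of the falls 79 were shared, 23.0% of the Cebpa d/d falls and 24.5% of the control falls, and no gene was called in opposite directions. The control counts moved with the arrays used: 228 rose and 81 fell without 0 hr replicate 1, whose Cebpa level goes against its label, 279 passed in all without 0 hr replicate 3, and 50 rose and 5 fell with only the 2 control groups in the fit. Without 3 hr replicate 1, 2 or 3 the rises were 744, 183 and 181 and the falls 670, 127 and 50. The share of Cebpa d/d rises also called in control was 8.66% with only the 2 control groups and between 23.5% and 50.7% without 1 control array. For falls these shares were 0.875% and between 6.71% and 25.1%. Among the Cebpa d/d rises 512 (96.4%) had a higher control mean at 3 hr, where 56.8% of all genes did. Across the 19870 genes outside the muscle lists the 2 differences correlated with r = 0.657, a description, since genes are not independent replicates.

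Sizes of some leading rises were near each other in the 2 genotypes, while others differed more. Mir18 rose by 2.40 in Cebpa d/d and 1.65 in control. The 531 rises, chosen by the Cebpa d/d change, had a median of 0.656 there and 0.478 in control. Slc7a11 rose by 5.19 and 5.02, Hmox1 by 4.29 and 3.96, Srxn1 by 2.46 and 2.55, Myc by 2.72 and 2.75 and Atf3 by 2.81 and 2.67 in Cebpa d/d and control. The NRF2 list had 25 and 23 risers, the ATF4 list 23 and 21, the immediate early list 20 and 16 and the ribosome list 15 and 15. The test of the difference between the 2 changes passed for 0 genes in limma, with a smallest adjusted p of 0.0572, while 1365 genes (6.85%) had an unadjusted p under 0.05. Without Cebpa d/d 0 hr replicate 3 it passed for 44 genes, without control 0 hr replicate 2 for 14, and without control 3 hr replicate 2 or Cebpa d/d 3 hr replicate 3 for 1. With array weights it passed for 24 genes.

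The 4 genes nearest to passing were muscle genes, Xirp2, Actn2, Myl3 and Myom1, whose changes in Cebpa d/d less those in control were -2.17, -1.95, -2.62 and -0.89. The fifth was Rwdd2a, whose 3 hr level separated cleanly: 6.24, 6.13 and 6.12 and then 7.40, 7.44 and 7.07 in Cebpa d/d, a rise of 1.14 ± 0.10, against 0.29 in control (difference 0.85, adjusted p = 0.0674). Chac1 rose by 1.97 in Cebpa d/d and 1.12 in control (difference 0.86, adjusted p = 0.192), and Cxcl5 by 1.53 against 0.16 (difference 1.37, adjusted p = 0.334). Such differences did not pass, which does not show that the genotypes responded alike.

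**Figure D5:**
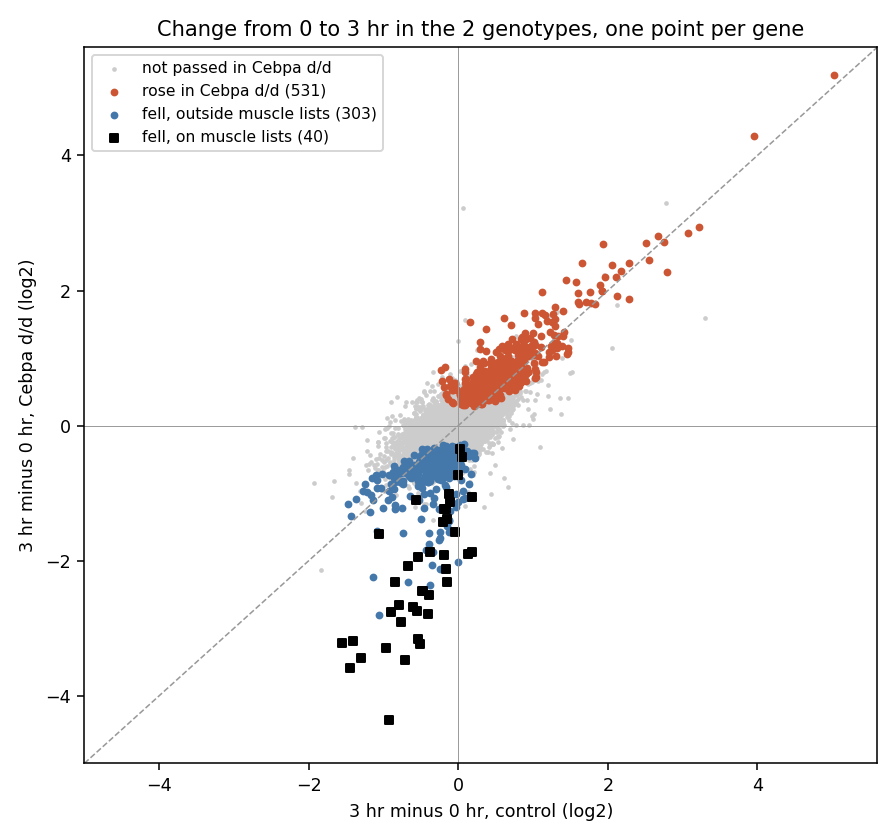
Change from 0 to 3 hr in Cebpa d/d (log2, vertical axis) against that in control (log2, horizontal axis), one point per gene, with the line of equal change dashed; colours mark the 531 rises, the 303 falls outside the muscle lists and, as black squares, the 40 falls on them. The rises were chosen by the Cebpa d/d change, and their median is 0.656 there against 0.478 in control. Most black squares lie well below the dashed line, with Hamp lowest at -4.36 against -0.93 in control.

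At 72 hr in Cebpa d/d, the later time of the same genotype, most of the rises lay below their 3 hr level. Of the 531 rises 455 (85.7%) had a 72 hr mean within 0.5 of the 0 hr mean, and in 429 all 72 hr arrays lay below all 3 hr arrays. The median rise was 0.656, so a small rise can lie within 0.5 without having gone back. The 0 and 3 hr arrays also chose these genes, and shares over all genes are not given for the counts at 72 hr. X- and Y-linked transcripts placed all 3 arrays of 72 hr as female, unlike the mixed groups of 0 and 3 hr. The part of sex in these counts was not tested. Hmox1, Slc7a11 and Srxn1 had 72 hr means of 7.80, 5.81 and 8.24. Of the 25 largest rises only 15 had a 72 hr mean within 0.5 of the 0 hr mean. Exceptions among the named rises included Mt2 and Mt1, with 72 hr means of 11.11 and 11.04, Akr1b8 at 8.92, and Krt8 and Krt19 at 12.20 and 11.31. Of the 343 falls 230 had all 72 hr arrays below all 0 hr arrays, as in Hamp, whose 72 hr mean was 4.69.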

How the data were processed

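Per the submitters' processing notes, the authors summarised the Affymetrix arrays with RMA; the deposited values are on the log2 scale, and version and build are not given in the sources used here. They covered 35557 probe sets. Of these 21789 had 1 gene symbol in the platform annotation, 1621 several and 12147 none, so 13768 were left out. For 999 genes with several probe sets the one with the highest mean was kept, giving 19938 genes, of which 19855 were found in the RefSeq table of GRCm38.p6 that gave the promoters.

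Differences were tested with limma 3.58.1 in R 4.3.3 (lmFit, eBayes) with 6 group means over 18 arrays, Benjamini-Hochberg adjustment over all genes and a threshold of 0.05. The scripts were tested on simulated data. With 3 arrays a group, the number of arrays limits the precision. Members and the 52 gene lists were chosen with earlier results of these data known. Named genes were Cebpa, the 25 largest non-overlapping rises, the 25 largest falls outside the muscle lists, the 6 largest muscle falls, up to 8 members of each list by adjusted p, the 5 smallest interaction p values, cell type markers and reference genes such as Scgb1a1, Hmox1 and Myc; list members outside this rule are named only to account for every call. The gene Cdkn1a is not analysed here. Alternatives were other filters, probe rules, variance models, array weights, centring, a replicate block, sex or the heart muscle mean as covariates, fold thresholds and leaving out each array. Samples with the same replicate number did not deviate together (r of -0.043, -0.13 and -0.118), so the numbers were not used as pairs.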

Additional observations from a re-analysis of the deposited data

Results flagged for a closer look

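For 3 genes flagged here the 0 and 3 hr arrays did not overlap in either genotype, with opposite directions in the 2 genotypes. Lack of overlap is common, since in Cebpa d/d it held for 10.7% of all genes upward and 11.9% downward. The share of all genes with such opposite directions is not given here. Alox15, a lipoxygenase, had a difference between the 2 changes of -0.63 (adjusted p = 0.444 in limma). The claudin Cldn3 had a difference of 0.46 (adjusted p = 0.65) and the intraflagellar transport gene Ift80 one of 0.66 (adjusted p = 0.192), so none passed. Outside the genes analysed, among the 13768 probe sets with none or several symbols, 134 rose and 46 fell in Cebpa d/d from 0 to 3 hr at an adjusted p under 0.05. Their identity was not examined.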

How the results depend on the processing

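The 874 calls of Cebpa d/d became 515 with a 1.5-fold minimum, 550 with variance from the 12 arrays of 0 and 3 hr (added after seeing the data) and 6 with the heart muscle covariate. They ranged from 402 to 994 when 1 array was left out. Centring each array on its median gave 830. The interaction passed for 24 genes with array weights, for 289 at an unadjusted p with 1.5-fold, and for 0 to 44 when 1 array was left out. Control calls, 697 in all, became 55 with only the groups of the contrast, 420 with a 1.5-fold minimum, 283 with the 12 arrays, and 231 to 1414 when 1 array was left out. With the replicate number as a block, although the numbers showed no pairing, the calls were 651 (403 rises, 248 falls) in Cebpa d/d, 460 in control and 0 for the interaction. Named genes whose sign reversed did so with the heart muscle covariate: Adipoq 0.65, Aldh1a2 0.01, Art3 0.28, Car3 0.02, Cox7a1 0.19, Cox8b 0.51, Erbb4 0.23, Mapk10 0.33, Muc16 0.45, Myh6 0.62, Myl7 1.66, Myoz2 1.01, Rsph9 -0.01 and Tnni3 0.14. For these the cause was not tested. With 3 arrays a group, changes smaller than the spread between arrays could not be detected.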
